A study of Saccharomyces cerevisiae with 4 samples.

Results

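The strain BF2B was compared with the strain BF2 of the budding yeast Saccharomyces cerevisiae on 2 two-colour oligonucleotide slides that carried the same pair of labelled RNAs with the dyes exchanged. Both cultures had been kept in 0.6 mol/L NaCl for 45 min. Each slide held 6388 gene probes with 3 spots each, and the genes described here are the 4660 (72.9%) whose signal exceeded the local background in the channel of at least 1 strain on slide 1 and again on slide 2. The remaining 1728 did not. In BF2 the gene BDF1 was deleted, and the plasmids pYX242 and pRS316 were present. In BF2B the genes BDF1 and BDF2 were both deleted, and pYX242 was present together with a construct that the labels write as BDF2 L without saying what L means. Salt, the loss of BDF1 and pYX242 were therefore shared by both strains, and what set them apart by the labels was the source of BDF2 and the plasmid pRS316. A further strain of the series, BF2S, was hybridised against the same BF2 and enters here only through a few values set side by side. On slide 1 BF2B was labelled with Cy5, and on slide 2 with Cy3. The pair of slides counts as 1 replicate of 1 RNA pair, so no test was possible, no p-values are given, and every SD printed with a log2 ratio is the technical spread of 2 hybridisations (n = 2 slides).

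BDF1 and BDF2 encode related proteins with paired bromodomains, which bind acetylated histone tails and are tied to the general transcription machinery. Yeast in high salt loses water and takes up sodium, activates the Hog1 kinase, makes glycerol and for a time slows growth while stress genes are transcribed. Nutrient genes have their own switches. Inositol synthesis is switched by the activators Ino2 and Ino4 and the repressor Opi1, phosphate uptake by Pho4, nitrogen use by the GATA factors Gln3, Gat1 and Dal80, and iron uptake by Aft1.

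The brightness of a spot was read as its median minus that of its local surroundings and is given below in units, averaged over the 3 spots of a probe. Median gene signals were between 463.75 and 667 units on the slides used, while the medians over blank spots ran from 29 to 110 units. The Cy5 channel was the more sensitive, with 77.0% and 74.9% of gene spots above background beside 42.8% and 44.9% in Cy3. Of the 4660 genes, 2529 were above background in both channels on both slides. There were 3 genes above background only in BF2B and 4 only in BF2 on both slides, and all 7 appear below with a bound in place of a fold. A further 35 called genes were not above background in 1 channel of 1 slide, and ATG18, CTA1 and IRC8 not in the Cy3 channel of either slide, so the size of their ratios is less certain. Log2 ratios are BF2B over BF2, so a positive value means a higher signal in BF2B. A call, higher or lower, required a difference of over 2-fold with the same sign on each slide, which is the selection rule the submitters state in the labels.

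Most genes differed little between the strains. On both slides 3487 genes (74.8%) were within 1.5-fold, the median log2 ratio was -0.01, and the 5th and 95th percentiles over genes were -0.70 and 0.66. By the 2-fold rule 139 of 4660 genes were called, which is 2.98%. Of these, 64 were higher (1.37%) and 75 were lower (1.61%) in BF2B, and 6 of the higher and 12 of the lower genes had mean ratios beyond 4-fold. For every called gene both BF2B signals lay outside the range of both BF2 signals, against 37.0% of all 4660 genes. The signals came from whole cultures, in which fewer cells with a transcript and less transcript per cell cannot be told apart. Agreement between the slides grew with brightness. In the dimmest of 4 equal classes of 1165 genes the slides correlated across genes at r = 0.237 and 4 genes were higher and 11 lower, and in the brightest at r = 0.885 with 34 higher and 34 lower. Across all 4660 genes, which are not independent replicates, r was 0.640 and the median SD between the slides was 0.185.

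**Figure D1:**
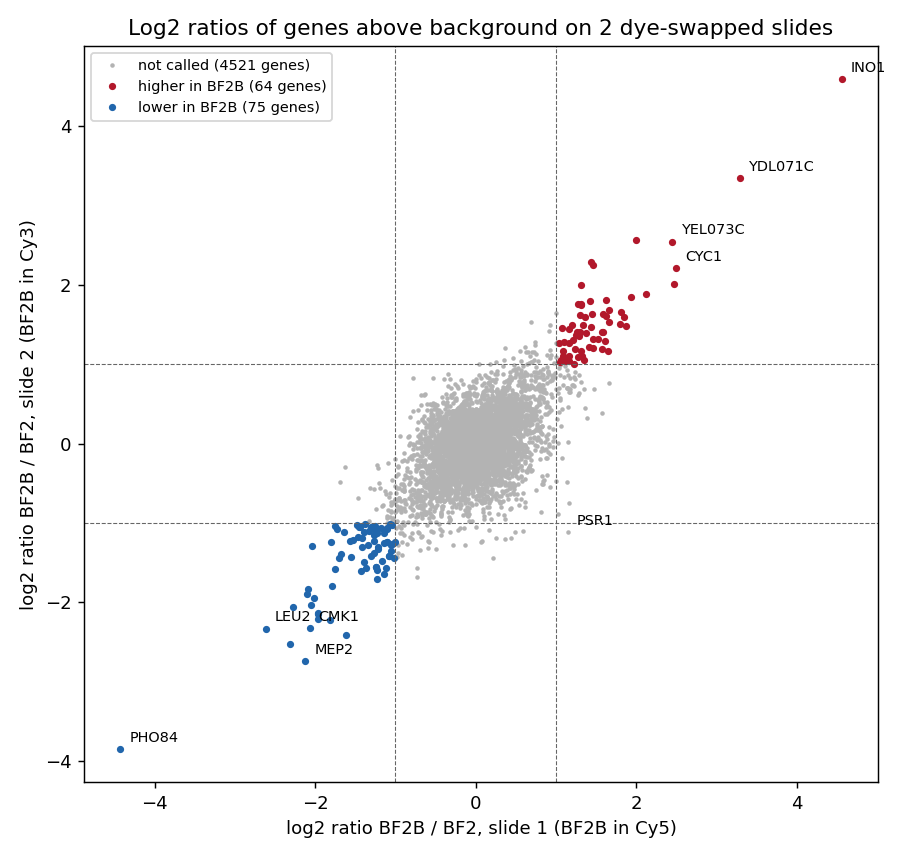
Each point is 1 of 4660 genes, with its log2 ratio of BF2B over BF2 on slide 1 (BF2B in Cy5) along the x axis and on slide 2 (BF2B in Cy3) along the y axis. Genes called over 2-fold are coloured, 64 higher and 75 lower, with INO1 at the upper right end and PHO84 at the lower left end.

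The genes on chromosomes VI and I were displaced as whole groups, and this is given first because it touches many of the genes named below. The 87 genes above background on chromosome VI had a median log2 ratio of -0.75, a ratio of 0.593, with medians of -0.69 on slide 1 and -0.78 on slide 2. Of these genes 72 (82.8%) were negative on both slides and 11 were positive on both. The 74 genes of chromosome I had a median of 0.48, a ratio of 1.40, with 0.50 and 0.53 on the slides, and 62 of them (83.8%) were positive on both slides and 4 (5.41%) negative on both. The medians of the other 14 chromosomes lay between -0.08 and 0.05. On those, 24.2% to 39.9% of genes were negative on both slides and 27.5% to 39.0% positive on both. No chromosome outside this pair came near it in median or in shared sign.

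**Figure D2:**
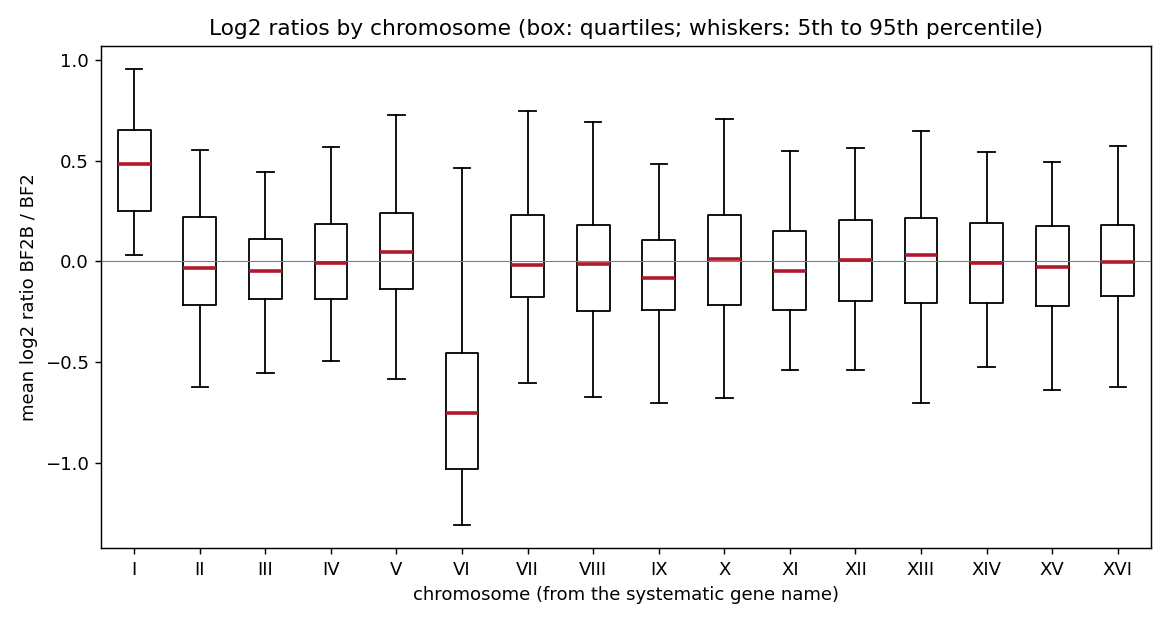
For the genes above background on each of 16 chromosomes, the line in the box gives the median log2 ratio of BF2B over BF2. The box spans their middle 50%, and the whiskers run from the 5th to the 95th percentile. Chromosome VI lies at -0.75 and chromosome I at 0.48, while the others lie between -0.08 and 0.05.

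The displacement ran along both chromosomes and was smaller at their ends. On chromosome VI the 67 genes between the 10 outermost genes of each end had a median of -0.88 with 60 negative on both slides, whereas the 20 outermost genes had a median of -0.20 with 12 negative and 7 positive on both. On chromosome I the 54 inner genes had a median of 0.53 with 50 positive on both slides, and the 20 outermost had 0.26 with 12 positive on both. Some genes of each chromosome went the other way. The glycogen synthase gene GSY1 on chromosome VI stood at 0.81, the hexokinase gene HXK1 at 0.46 and STE2, the gene for the alpha-factor receptor of a cells, at 0.38. On chromosome I the chaperone gene SSA1 stood at -0.11 and the acid phosphatase gene PHO11 at -0.45. Whether the strains differed in copies of these chromosomes was not tested, and no DNA was measured here.

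**Figure D3:**
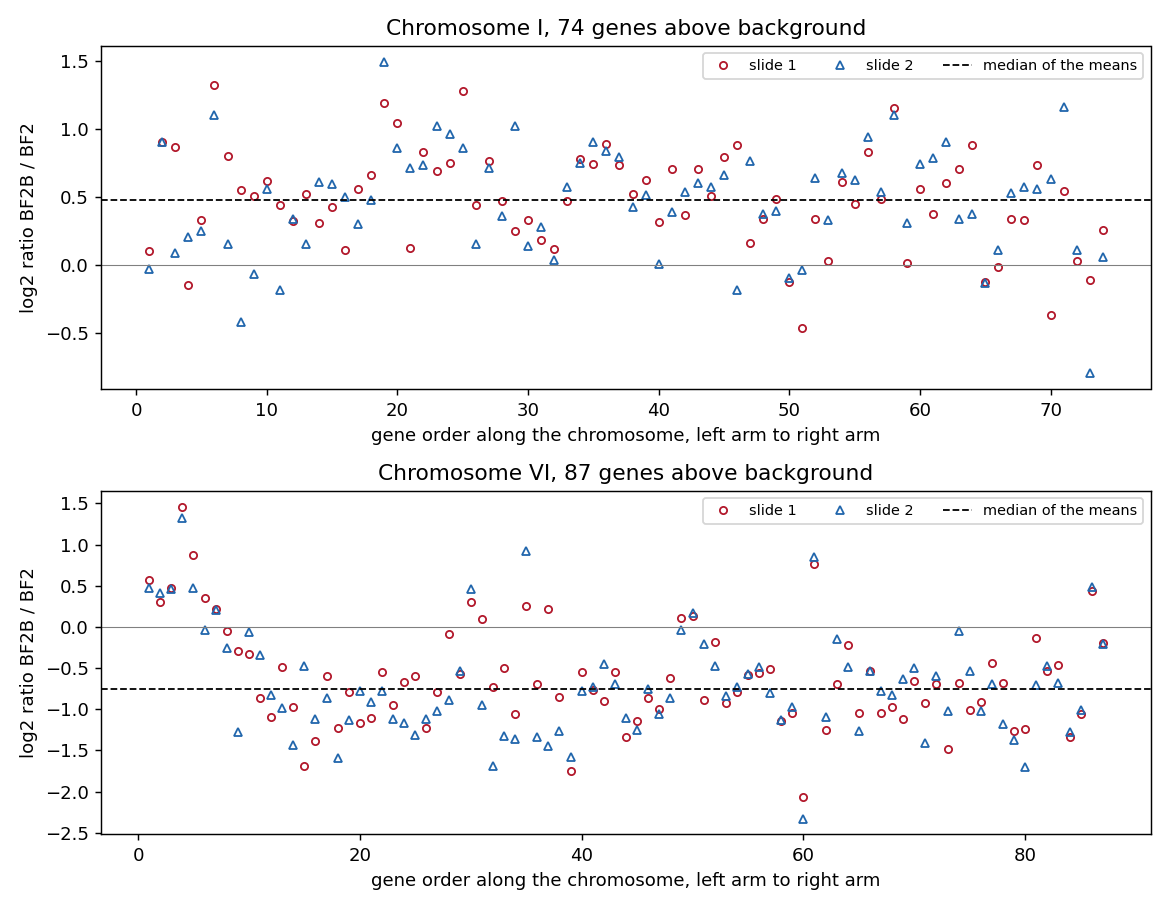
Log2 ratios of BF2B over BF2 are plotted in gene order from the left to the right end of chromosomes I and VI, with 1 point per gene above background and slide. On chromosome VI 72 of 87 genes are below 0 on both slides, and on chromosome I 62 of 74 are above 0 on both.

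The calls on these chromosomes followed the same directions. Chromosome VI held 17 called genes (19.5% of its 87), of which 16 were lower, or 21.3% of all lower genes, and 1 was higher. The 16 were CMK1, a calmodulin-dependent kinase gene (-2.20 ± 0.18), HSP12, a membrane-bound stress protein gene (-1.67 ± 0.12), MRX20 (-1.47 ± 0.33), the actin gene ACT1 (-1.42 ± 0.26), the cysteinylglycine dipeptidase gene DUG1 (-1.32 ± 0.08), the COPI coat gene RET2 (-1.31 ± 0.04), the ribosomal protein gene RPL29 (-1.25 ± 0.33), the sterol transfer gene LAM5 (-1.25 ± 0.19), the proteasome activator gene BLM10 (-1.22 ± 0.16), the GATA factor gene GAT1 (-1.21 ± 0.21), HAC1, the activator of the unfolded protein response (-1.17 ± 0.07), AIP5 (-1.17 ± 0.12), the autophagy gene ATG18 (-1.15 ± 0.16), the ubiquitin protease gene UBP6 (-1.13 ± 0.01), the proteasome subunit gene RPN12 (-1.03 ± 0.04) and the probe YFL006W (-1.20 ± 0.08), a name that the gene table gives as a synonym of BLM10. The 1 higher gene, YFL065C (1.39 ± 0.09), lies near the left end. On chromosome I the glycine cleavage gene GCV3 (1.35 ± 0.22), the butanediol dehydrogenase gene BDH1 (1.22 ± 0.16) and the replication protein A gene RFA1 (1.13 ± 0.04) were higher and 0 genes were lower.

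Relative to the median of their own chromosome most of these genes were no longer beyond 2-fold, in a calculation added after the data were seen. Of the 20 calls on both chromosomes only the lower CMK1, at -1.46, and the higher YFL065C, at 2.13, kept their call, while ACT1 came to -0.68 and GCV3 to 0.83. HSP12 came to -0.93, but its BF2 spots were saturated on slide 2, so that its true difference may be larger and whether it would lie beyond 2-fold is not known. Of the called genes elsewhere CTA1 and RNR1 lost their call as well. On the other 14 chromosomes 119 of 4499 genes were called (2.65%), with 60 higher (1.33%) and 59 lower (1.31%). The ACT1 control spots, 144 on each slide, gave log2 ratios of -1.22 and -1.33 beside a mean of -1.42 for the gene probe of ACT1. The RPL32 control spots gave a mean of -0.16 beside -0.11 for its gene probe.

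The genes that define the strains were read next. The BDF1 probe gave 1.67 and -197 units in BF2B beside -143 and -3.33 in BF2, none of them above background. BDF2 gave 10555 and 12797 units in BF2B beside 3271 and 4906 in BF2, a log2 ratio of 1.61 ± 0.03, and was thus called higher in the strain that carried BDF2 L. The probe YDL071C, named for the open reading frame numbered next to BDF2 on the opposite strand, gave 937 and 1337 units in BF2B beside -112 and 60 in BF2. Only the BF2B signals were above background, and YDL071C was at least 2.97-fold higher in BF2B. This call, like those of YGR067C and YHB1, was lost when the spots marked -100 in the files, all on slide 1, were left out. For YDL071C no value then remained on slide 1, so no ratio was read there. YDL071C is not in the gene table used here, and the sources used here do not name the labelled strand. Its signal was therefore not separated from BDF2 transcripts. SIR2, which encodes the histone deacetylase of silent chromatin, was not above background in either strain.

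Both plasmid marker genes were lower in BF2B. LEU2, the marker of pYX242, which both strains carried, gave 14218 and 10501 units in BF2B beside 64821 and 65419 in BF2, and all 3 BF2 spots were saturated on both slides. Its signal was therefore at least 5.55-fold lower in BF2B. URA3, the marker of pRS316, which BF2 carried, gave 10356 and 11560.0 units in BF2B beside 19898 and 29510.5 in BF2 and a ratio of -1.12 ± 0.08. The signal in BF2B was well above background, so the lower URA3 ratio was not an absence of signal. Of 7 genes specific to a cells 5 were above background, with a median ratio of 0.83, and the a-factor gene MFA2 was called higher (1.61 ± 0.01). The second a-factor gene MFA1 (1.05 ± 0.07) and the a-factor exporter gene STE6 (0.80 ± 0.33) were positive but not called. Of 7 alpha-cell genes on the array SAG1 (0.23) and HMLALPHA2 (-0.01) passed the background filter and were not called, while MF(ALPHA)1, MF(ALPHA)2, STE3, MATALPHA1 and HMLALPHA1 did not pass it.

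Of 30 genes of inositol and phospholipid synthesis above background 4 were called higher in BF2B and 0 lower, led by INO1, against 1.37% higher over all genes, and the median of the list was 0.39 against -0.01 over all genes. INO1, which makes inositol phosphate from glucose phosphate, gave 11326 and 12242 units in BF2B beside 261 and 491 in BF2, a log2 ratio of 4.57 ± 0.02. INO1 was bright in BF2B on both slides, and its BF2 signal was above background only on slide 2, so the size of the ratio is uncertain. It ran from 4.18 to 5.13 over the alternatives. ITR1, the main inositol transporter gene, gave 17255 and 15779 units in BF2B beside 4298 and 6279 in BF2 and a ratio of 1.72 ± 0.17. CDS1, which makes the CDP-diacylglycerol from which phosphatidylinositol and phosphatidylserine are built, and PSD1, which turns phosphatidylserine into phosphatidylethanolamine in mitochondria, reached 1.49 ± 0.12 and 1.33 ± 0.10. The uncalled members included the choline transporter gene HNM1 (0.99 ± 0.36), the ethanolamine phosphotransferase gene EPT1 (1.03 ± 0.28), the methyltransferase genes OPI3 (0.80 ± 0.36) and CHO2 (0.75 ± 0.25) and the phosphatidylserine synthase gene CHO1 (0.73 ± 0.17). Their regulators stood at 0.21 for INO2, 0.42 for INO4 and 0.35 for OPI1, between those percentiles.

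Further called genes of lipid metabolism were put together after their values were seen. ACS2, which makes acetyl-CoA in glucose medium, and EHT1, which makes fatty acid ethyl esters, reached 1.19 ± 0.13 and 1.21 ± 0.07. UPS2, a gene for the transfer of phospholipid within mitochondria, reached 1.31 ± 0.09. Of 17 genes of fatty acid synthesis and elongation above background 0 were called, with a median of 0.22 and with the elongase gene ELO3 at 0.74 ± 0.30 and the synthase gene FAS2 at 0.71 ± 0.04. The sterol genes ERG5 (1.65 ± 0.20) and ERG3 (1.40 ± 0.34), which act late in ergosterol synthesis, were higher. Of 25 sphingolipid genes 0 were called, with a median of -0.10, the hydroxylase gene SUR2 at 0.91 ± 0.19 and the ceramidase gene YDC1 at -0.63 ± 0.20. Among 37 peroxisomal genes the catalase gene CTA1 (-1.03 ± 0.01) was the 1 lower call and the median was -0.10.

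Genes around S-adenosylmethionine, the methyl donor of phosphatidylcholine and sterol synthesis, belong to no list used here and were put together after their values were seen. SAM2, an S-adenosylmethionine synthetase gene, gave 5456 and 5824 units in BF2B beside 805 and 1572 in BF2, a ratio of 2.24 ± 0.33. SAH1, which removes the S-adenosylhomocysteine left by methyl transfer, reached 1.54 ± 0.32, and SAM3, the S-adenosylmethionine permease gene, 1.10 ± 0.09. The methionine synthase gene MET6 stood at 1.003 and was not called. Among 31 genes of purine synthesis and one-carbon metabolism above background GCV3 on chromosome I was the 1 called, and the median was 0.18. LEU1, an isomerase gene of leucine synthesis, was higher at 1.39 ± 0.26.

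PHO84 had the largest decrease of all called genes. PHO84, VTC1 and DET1 belong to no list used here and were put together after their values were seen. No share or median of phosphate genes as a set was computed here. PHO84, the high-affinity phosphate transporter gene, gave 527 and 636 units in BF2B beside 13139 and 13553 in BF2, a ratio of -4.14 ± 0.41. It was bright in BF2 and dim in BF2B on both slides. VTC1, of the complex that makes polyphosphate, stood at -1.15 ± 0.16. DET1, for which no role in phosphate uptake is given here, gave 6089.7 and 5771 units in BF2B beside 26565 and 41550.0 in BF2. Its ratio was -2.42 ± 0.15.

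Of 26 genes of nitrogen use 6 were called lower in BF2B and 0 higher, against 1.61% lower over all genes, and the median was -0.22. MEP2, a high-affinity ammonium permease gene, gave 523 and 312 units in BF2B beside 2549 and 3636 in BF2, a ratio of -2.43 ± 0.44, with BF2B above background only on slide 1. GAP1, the general amino acid permease gene, gave 2889.5 and 2744 units in BF2B beside 11279 and 15912 in BF2 and a ratio of -2.09 ± 0.17. PUT1, the proline oxidase gene, gave 2419 and 2603 units in BF2B beside 10380.3 and 11528 in BF2 and a ratio of -1.96 ± 0.17. In these genes the BF2 signals did not overlap those of BF2B, as was the case for every called gene and for 37.0% of all 4660 genes. DAL80, a GATA repressor gene, gave 115 and 7.17 units in BF2B beside 663 and 774 in BF2, was not above background in BF2B, and was at least 2.15-fold lower. MEP1 (-1.80 ± 0.01) and the activator gene GAT1 (-1.21 ± 0.21), which is on chromosome VI, were the other lower genes of the list. Other nitrogen lists showed few calls. Of 26 amino acid permease genes SAM3 alone was called, with a median of 0.04. Among 24 genes of arginine and polyamine metabolism 0 were called, with the polyamine exporter gene TPO2 at 0.89 ± 0.38 and ARG3 at -0.66 ± 0.15. Of 30 genes of lysine, aromatic amino acid and histidine metabolism 0 were called, with the decarboxylase gene ARO10 at 1.07 ± 0.24 and the transaminase gene ARO9 at 0.67 ± 0.11. GAD1, the glutamate decarboxylase gene, was lower at -1.20 ± 0.26.

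**Figure D4:**
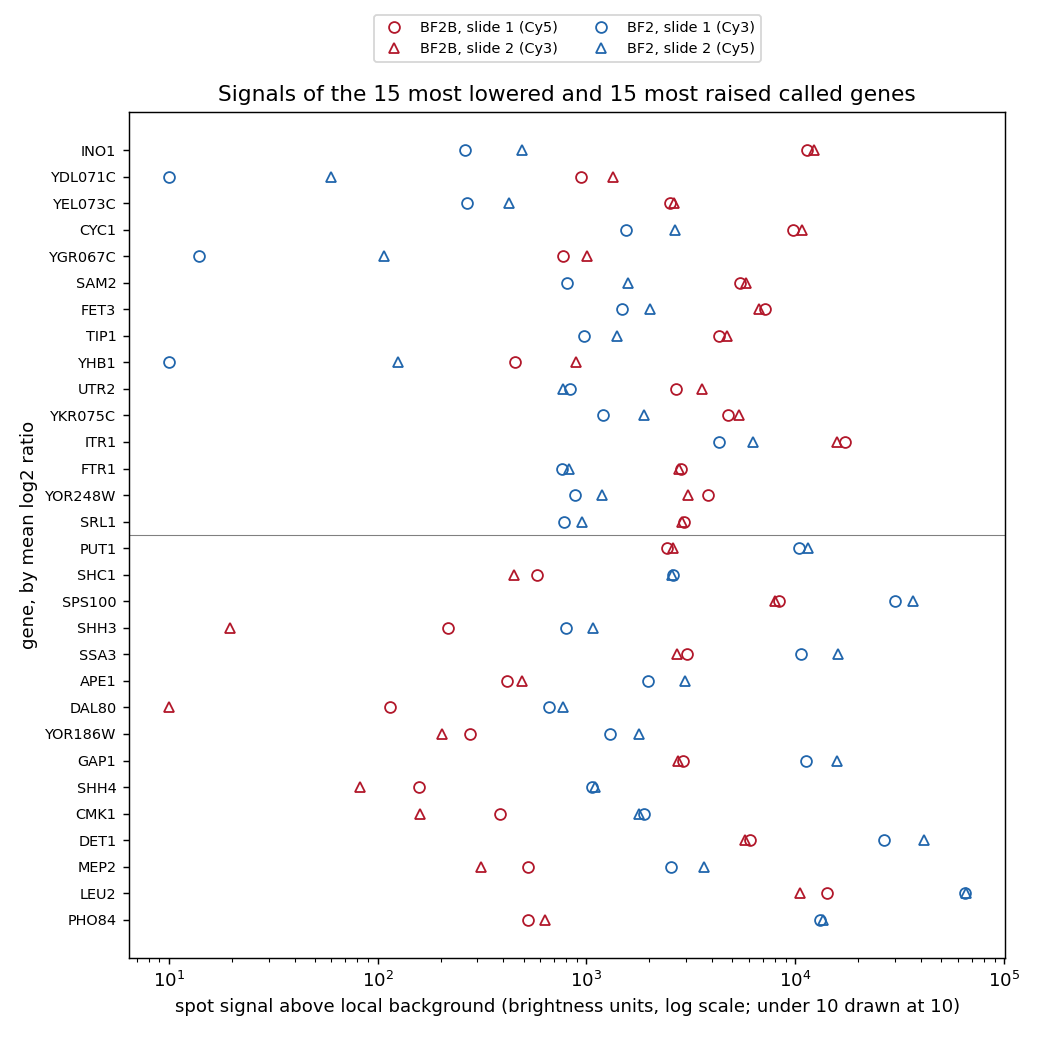
For the 15 called genes with the largest increases and the 15 with the largest decreases, the signals of BF2B and BF2 on both slides are plotted in brightness units on a log axis, with 1 point per strain and slide and values under 10 drawn at 10. INO1 reads 11326 and 12242 units in BF2B beside 261 and 491 in BF2, and PHO84 reads 527 and 636 units beside 13139 and 13553.

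Genes of iron and zinc uptake were among those called higher in BF2B, to be read against 1.37% higher over all genes. FET3, FTR1 and FRE2 belong to no list used here and were put together with FIT2 after their values were seen. FET3, the multicopper oxidase gene of iron uptake, gave 7164 and 6709.5 units in BF2B beside 1484 and 2015 in BF2, a ratio of 1.999 ± 0.16, and FTR1, its permease partner, gave 2826 and 2761 units in BF2B beside 765 and 826 in BF2 and 1.71 ± 0.13. FIT2, a cell wall mannoprotein gene of siderophore retention, and FRE2, a ferric reductase gene, reached 1.35 ± 0.08 and 1.04 ± 0.02. ZRT1, the high-affinity zinc transporter gene, and IZH3, a membrane protein gene of zinc balance, reached 1.52 ± 0.34 and 1.53 ± 0.31 and were the 2 called of 12 zinc genes, with a median of 0.33. The metallothionein genes CUP1-1 (1.42 ± 0.14) and CUP1-2 (1.33 ± 0.18) were the 2 called of 12 copper genes, with a median of 0.16. Both lost their call under median centring, and CUP1-2 also in the deposited value table. Since the CUP1 copies are near-identical, their probes may read the same transcripts. Of 26 genes of iron-sulfur cluster assembly 0 were called and the median was 0.02, with the scaffold gene ISU2 at 0.98 ± 0.84 and TIS11, which removes transcripts in iron shortage, at 0.88 ± 0.09.

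Called respiratory and haem genes went in both directions. CYB2, RGI1, NDE2, SHH3 and SHH4 belong to no list used here and were put together after their values were seen. CYC1, the main cytochrome c gene, gave 9784 and 10791 units in BF2B beside 1539 and 2655 in BF2, a ratio of 2.35 ± 0.20. HAP4, the activator subunit that controls respiratory genes, reached 1.42 ± 0.11, and CYB2, the lactate dehydrogenase gene that passes electrons to cytochrome c, 1.32 ± 0.14. YHB1, the flavohaemoglobin gene of nitric oxide removal, gave 454 and 887 units in BF2B beside 9.33 and 125 in BF2, was not above background in BF2, and was at least 1.81-fold higher. RGI1, a gene of respiratory growth, stood at 1.54 ± 0.13. Against these, the external NADH dehydrogenase gene NDE2 (-1.25 ± 0.27) and both relatives of succinate dehydrogenase subunits were lower. The other external NADH dehydrogenase gene, NDE1, stood at 1.21 ± 0.40 and was not called. SHH4 gave 158 and 82.3 units in BF2B beside 1065 and 1104 in BF2, was not above background in BF2B, and was at least 2.90-fold lower, while SHH3 gave 217 and 19.7 units in BF2B beside 802 and 1076 in BF2 and a ratio of -2.01 ± 0.56. The BF2B signal of SHH3 was above background only on slide 1, and its ratio ran from -3.51 to -1.39 over the alternatives. Of 26 haem and hypoxia genes 3 were higher and 0 lower, against 1.37% higher over all genes, with a median of 0.05.

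The 45 mitochondrial import genes had a median of -0.23 with 0 calls, and the matrix chaperone genes HSP60 (-0.82 ± 0.20) and MDJ1 (-1.06 ± 0.29), the latter on chromosome VI, were farthest. Of 28 mitochondrial carrier genes OAC1, the oxaloacetate carrier gene (1.45 ± 0.22), was the 1 called and the median was 0.02. Probes for 28 genes of the mitochondrial genome were on the slides and 0 of them passed the background filter, so that genome was not described. FMP16, a gene for a mitochondrial protein, was lower at -1.17 ± 0.10.

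Sugar transporter genes were called in both directions. HXT4 (1.48 ± 0.16), HXT6 (1.45 ± 0.02), HXT7 (1.32 ± 0.05) and HXT3 (1.31 ± 0.20) were higher, while HXT5 (-1.09 ± 0.02) was lower. HXT6 and HXT7 are near-identical too, and their values are not separate measurements. Of 7 genes of galactose, maltose and glucose sensing above background 0 were called, with the hexokinase gene HXK2 at 0.98 ± 0.33, the glucose sensing gene MTH1 at 0.93 ± 0.32 and a median of 0.46. Glycerol is the main solute yeast makes in salt. Of 13 genes of glycerol and sugar alcohols 0 were called, with the glycerol importer gene STL1 at 1.03 ± 0.12, the dihydroxyacetone kinase gene DAK1 at -0.69 ± 0.04 and a median of -0.06. AQY1, an aquaporin gene, gave 901 and 1246 units in BF2B beside 4006 and 3794 in BF2 and was lower at -1.66 ± 0.53. SIP4, an activator gene of gluconeogenesis, and GID10, a subunit gene of the ligase that removes gluconeogenic enzymes, stood at -1.18 ± 0.10 and -1.25 ± 0.28. SOL4, a gene of the pentose phosphate pathway, was lower at -1.27 ± 0.08.

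Enzymes of redox metabolism were mixed, to be read against 1.37% higher and 1.61% lower over all genes. Of 30 such genes BDH1 on chromosome I and DLD3 (1.496 ± 0.13) were higher, AAD10, an aryl-alcohol dehydrogenase gene (-1.49 ± 0.08), and ALD2, an aldehyde dehydrogenase gene (-1.25 ± 0.24), were lower, and the median was -0.05. PDC6, a minor pyruvate decarboxylase gene, and YJR096W, an aldo-keto reductase gene, stood at -1.53 ± 0.21 and -1.40 ± 0.35. Called genes of peroxide defence, which form no list here, were the catalase gene CTT1 (-1.40 ± 0.24), the peroxiredoxin gene TSA2 (-1.47 ± 0.14) and the mitochondrial thioredoxin reductase gene TRR2 (-1.36 ± 0.08), all lower. The chaperone gene SSA3 gave 3024 and 2708 units in BF2B beside 10610.5 and 15933 in BF2 and a ratio of -2.02 ± 0.29, and the small heat shock gene HSP26 stood at -1.40 ± 0.22. HSP12, given above with chromosome VI, had all 3 BF2 spots of slide 2 saturated.

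Vitamin and nucleotide lists held a few calls each, to be read against 2.98% over all genes. SNO1 (1.11 ± 0.15) and SNZ1 (1.09 ± 0.05), which lie side by side and make vitamin B6, were the 2 higher of 16 vitamin genes with a median of 0.23. Both lost their call under median centring and in the deposited value table. BNA1, of the synthesis of NAD from tryptophan, stood at 1.22 ± 0.04. Among 13 pyrimidine genes URA3 and the dihydroorotate dehydrogenase gene URA1 (-1.17 ± 0.16) were lower, while the median of the list was 0.16. Of 38 replication genes the ribonucleotide reductase gene RNR1 (1.15 ± 0.16) and RFA1 on chromosome I were higher, with a median of 0.16. Of 57 repair genes 0 were called, with the small reductase subunit genes RNR4 at -0.81 ± 0.02 and RNR2 at -0.80 ± 0.13, opposite in sign to RNR1. Of 28 genes of cohesin and mitosis 0 were called, and their median was 0.22.

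Among cell wall genes more were called higher than lower, against 1.37% higher and 1.61% lower over all genes. TIP1, a cell wall mannoprotein gene, gave 4333 and 4708 units in BF2B beside 972 and 1403 in BF2, a ratio of 1.89 ± 0.06. UTR2, which links chitin to glucan, gave 2693 and 3557 units in BF2B beside 833 and 770.0 in BF2 and 1.85 ± 0.56. Of 28 genes that make or remodel wall polymers 4 were higher and 0 lower, with a median of 0.35, and beside UTR2 these were the glucanosyltransferase gene GAS1 (1.38 ± 0.01) and the glucanase genes SCW10 (1.21 ± 0.21) and EXG1 (1.10 ± 0.01). Of 30 wall protein genes TIP1, FIT2 and SVS1 (1.60 ± 0.08) were higher, SPS100 was lower, and the median was 0.29. SRL1 gave 2940.5 and 2876 units in BF2B beside 779 and 949 in BF2 and 1.67 ± 0.02, and TOS6, another wall protein gene, reached 1.66 ± 0.49. PAU20, of the seripauperin family, stood at 1.06 ± 0.00. Of 16 genes of daughter cell separation 0 were called and the median was 0.12.

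Genes of spores and meiosis were called in both directions. SPS100, a spore wall gene, gave 8327 and 7997 units in BF2B beside 30125 and 36634 in BF2, a ratio of -1.999 ± 0.15, and SHC1, which activates chitin synthesis in spores, gave 579 and 448 units in BF2B beside 2586 and 2578 in BF2 and -1.98 ± 0.05, with BF2B above background only on slide 1. RME1, a repressor gene of meiosis, was lower at -1.16 ± 0.15, whereas RIM4, an RNA-binding regulator gene of meiosis, was higher at 1.24 ± 0.10. Of 10 meiotic genes above background 1 was higher and 1 lower, against 1.37% and 1.61% over all genes, with a median of -0.32.

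Eisosomes are furrows of the plasma membrane that hold transporters and signalling lipids. Of 19 genes of eisosomes and related membrane proteins 4 were called lower in BF2B and 0 higher, against 1.61% lower over all genes, with a median of -0.24. NCE102 gave 7532 and 9019 units in BF2B beside 21694 and 23478 in BF2 and stood at -1.40 ± 0.45, LSP1, a core component gene, at -1.18 ± 0.18, and the related tetraspan genes FMP45 and YNL194C at -1.53 ± 0.40 and -1.18 ± 0.16. The proton pump gene PMA2 stood at -1.57 ± 0.18, and the drug pump gene PDR15, the 1 called of 20 multidrug genes, at -1.08 ± 0.02. The median of the multidrug list was -0.15.

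The 14 vacuolar hydrolase genes had the lowest median of the lists named here, -0.58, with 1 call. APE1, an aminopeptidase gene, gave 414 and 490.3 units in BF2B beside 1974 and 2977 in BF2, a ratio of -2.05 ± 0.02, and was called lower, with BF2B above background only on slide 1. APE3 stood at -1.02 ± 0.19 and was not called. TFS1, an inhibitor gene of carboxypeptidase Y, was lower too, at -1.37 ± 0.22. Of 21 genes of the vacuolar ATPase 0 were called and the median was -0.09, with RAV2 at -0.49 and VMA2 at -0.39. CIS1 gave 166 and 249 units in BF2B beside 730.5 and 827 in BF2, was not above background in BF2B, and was at least 2.11-fold lower, and HAB1 gave 181 and 192 units in BF2B beside 708 and 749 in BF2 and was at least 1.94-fold lower.

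Secretory lists had calls on chromosome VI only. HAC1 was the 1 lower of 31 genes of folding in the endoplasmic reticulum, RET2 the 1 lower of 49 genes of vesicle transport and ACT1 the 1 lower of 37 genes of endocytosis and the actin cytoskeleton, and the medians of these lists were 0.03, -0.10 and -0.16. Of 60 glycosylation genes 0 were called and the median was 0.02. YET2, of the endoplasmic reticulum membrane, was lower at -1.12 ± 0.17, and RCR1, a gene of the same membrane, at -1.52 ± 0.13.

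Of 62 kinase genes 3 were lower and 0 higher, against 1.61% lower and 1.37% higher over all genes. They were the calmodulin-dependent kinase genes CMK1 and CMK2 (-1.35 ± 0.32) and RCK1 (-1.33 ± 0.21), with CMK1 on chromosome VI, and the median was -0.08. CMK1 gave 386 and 159 units in BF2B beside 1880.5 and 1792 in BF2, with BF2B above background only on slide 1, and it is the only 1 of the 16 lower genes of chromosome VI still beyond 2-fold relative to that chromosome. Of 43 phosphatase genes 0 were called, with SDS22 at -0.92 ± 0.27, SDP1 at -0.70 ± 0.42 and a median of -0.03. Of 84 transcription factor genes 2 were higher, STP4 (1.19 ± 0.13) and HAP4, and 5 lower, GAT1, RME1, SIP4, DAL80 and HMS1 (-1.36 ± 0.07), with a median of 0.09.

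The machinery that reads genes gave 0 calls in most lists. This held for 42 genes of RNA polymerase II and mediator (median 0.01), 14 of RNA polymerase III (0.15), 50 of chromatin remodelling (0.00), 46 of splicing (-0.04), 38 of mRNA decay (-0.03), 42 of tRNA modification (0.06), 41 of the nuclear pore (0.04) and 27 of microtubules and kinetochores (0.04). Of 59 ubiquitin pathway genes UBP6 on chromosome VI was the 1 called and the median was 0.02. The farthest uncalled members of several lists without a call also lie on chromosomes VI and I. On chromosome VI these were the condensin gene SMC2 (-1.16), the phosphatase gene CDC14 (-0.88), the remodelling genes IOC3 (-1.01) and RSC8 (-0.96), the tubulin gene TUB2 (-0.98), the pore gene NIC96 (-0.88), MOB2 of daughter cell separation (-0.92), SEC53 of glycosylation (-1.20) and DEG1 of tRNA modification (-0.55), all negative. On chromosome I they were the deadenylase gene CCR4 (0.77), the transcription factor IIIC gene TFC3 (0.65) and the mannosyltransferase gene PMT2 (0.82), all positive. On other chromosomes the farthest were LSM5 (0.50) of mRNA decay, MUD2 (-0.43) and PRP6 (0.34) of splicing, RPB11 (0.48) and ROX3 (-0.44) of RNA polymerase II and mediator, TFC7 (-0.46) of RNA polymerase III, KIP2 (0.47) of microtubules, NDC1 (0.64) of the nuclear pore and KTI12 (0.63) of tRNA modification. With 1 RNA pair, 0 calls in a list say that no member passed 2-fold on both slides, not that its genes were equal.

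**Figure D5:**
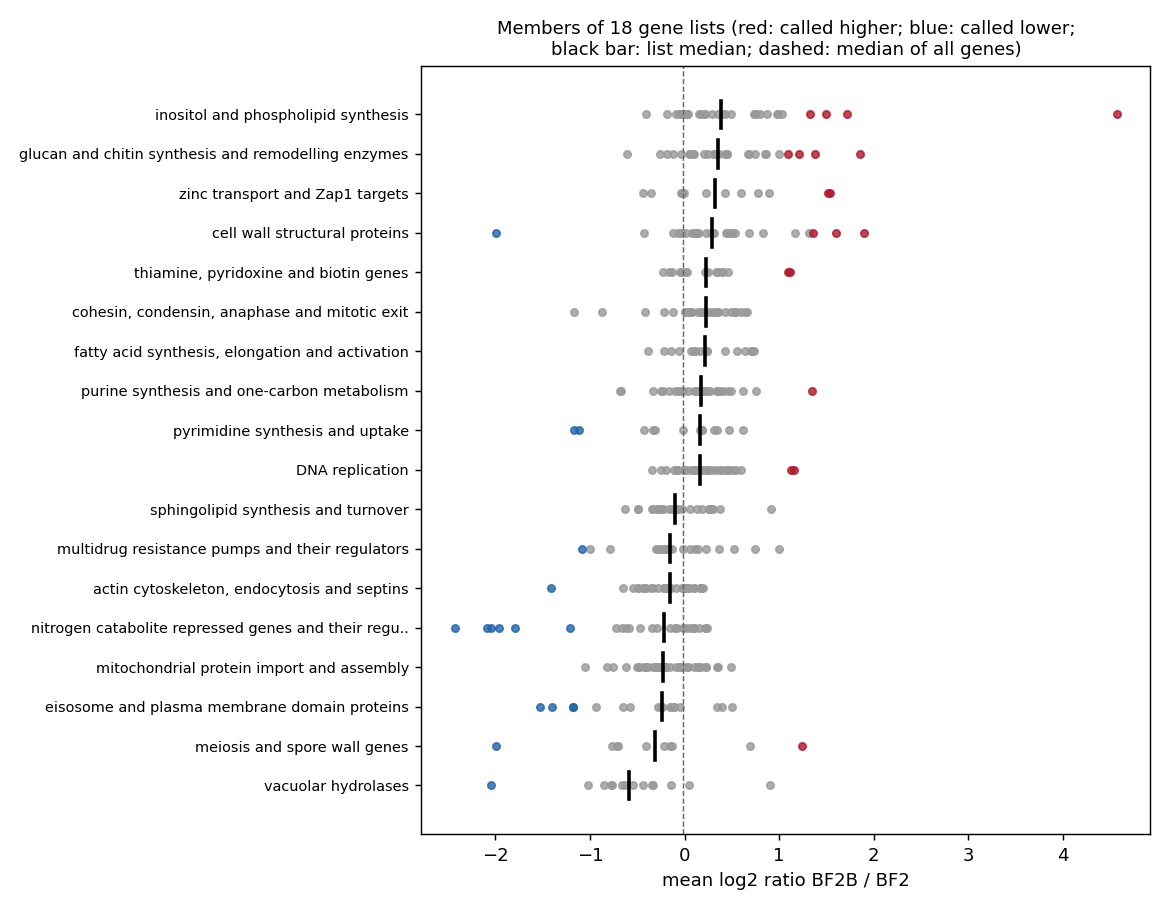
Each row is 1 gene list, with 1 point per gene above background at its mean log2 ratio of BF2B over BF2 and a bar at the median of the list. Of the 50 lists only those with the lowest and the highest medians are drawn, after lists with few genes were left out. The median of the vacuolar hydrolase list lies at -0.58 and that of the inositol and phospholipid list at 0.39, beside -0.01 over all genes.

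Of the 139 called genes 79 stood outside the 50 gene lists. The share of all genes outside the lists was not computed. Open reading frames without a gene symbol made up 17 of the 139, 8 higher and 9 lower. This is 2.94% of the 579 such genes above background, near the 2.98% called over all genes. YEL073C, near a chromosome end, gave 2499 and 2620.0 units in BF2B beside 268 and 427 in BF2, a ratio of 2.498 ± 0.07. Its BF2 signal was above background only on slide 2, and the ratio ran from 2.19 to 3.13, the latter in the deposited value table. YKR075C gave 4767 and 5402 units in BF2B beside 1204 and 1894 in BF2 and a ratio of 1.73 ± 0.11, and YGR067C gave 772 and 1011 units in BF2B beside 14 and 107 in BF2, was not above background in BF2, and was at least 2.37-fold higher. YOR248W gave 3816 and 3066 units in BF2B beside 885 and 1188 in BF2 and a ratio of 1.67 ± 0.27, and YOR186W gave 276 and 203 units in BF2B beside 1299 and 1789 in BF2 and -2.06 ± 0.13. The BF2B signal of YOR186W was above background only on slide 1, and the ratio ran from -2.97 to -1.79 over the alternatives. The remaining ones without a symbol or a role given above were YNL170W (1.61), YHR054C (1.26), YNL195C (-1.21), YPR127W (-1.25), YDL218W (-1.30), YHR140W (-1.32) and YOR385W (-1.40). The named genes not placed above were UBX6 (1.46), COS111 (1.27), IRC8 (1.13) and TDA6 (1.08), all higher, and SDC25 (-1.23), MSC1 (-1.25), ICS2 (-1.26) and HBT1 (-1.45), all lower.

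Called genes with consecutive systematic numbers formed 15 neighbouring pairs, 14 of them with both genes in the same direction. Some pairs are not separate measurements, since YFL006W is given as a synonym of BLM10 and HXT7 and HXT6 are near-identical. The share over all neighbouring genes was not computed. Outside chromosome VI, which held 3 pairs, the higher pairs were BDF2 with YDL071C, HXT7 with HXT6, CUP1-1 with YHR054C, YHR054C with CUP1-2, SNO1 with SNZ1, PSD1 with YNL170W and SRL1 with YOR248W. The lower pairs were FMP45 with HBT1, PDC6 with CTT1, SPS100 with YHR140W and YNL194C with YNL195C. The opposite pair was GID10, lower, with YGR067C, higher. In several pairs the names give opposite strands, and overlapping transcripts were not separated by strand.

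The 2-fold rule cut a continuous range. SNO1, at 1.22 and 1.01 on the 2 slides, YET2, at -1.003 and -1.24, and RPN12 were just inside it. PRY1, at 0.9985 and 1.64, MFA1, at 0.9981 and 1.09, and SKS1 were just outside it. Other processing also moved genes across it. Under median centring ACS2, ALD2, BDH1, BNA1, CMK2, CTA1, CUP1-1, CUP1-2, CYB2, ERG3, EXG1, FMP16, GAT1, HBT1, HSP26, HXT5, LEU1, MSC1, OAC1, PDR15, RFA1, RPN12, SAM3, SCW10, SNO1, SNZ1, STP4, TDA6, TFS1, UBP6, URA1, URA3, YET2 and YJR096W were not called. In the deposited value table ACT1, FRE2, PAU20, RIM4, YDL071C and YHB1 were not called, nor were several of the former. YDL071C did not have a value for each slide there. A further 47 genes had a mean ratio beyond 2-fold without passing on both slides, and PSR1 alone was beyond 2-fold in opposite directions, at 1.15 and -1.11.

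Ratios of BF2S to the same BF2 are set beside those of BF2B for the leading genes, without a comparison, because both share BF2 and because the slides of BF2S had bright blank spots, with BF2S medians of 6049.25 and 5325 units. INO1, at 4.57 in BF2B, read -0.66 and -0.26 on the BF2S slides. PHO84, at -4.14, read -5.28 and -4.90, and GAP1, at -2.09, read -5.86 and -6.25. FET3, at 1.999, read -4.10 and -3.68, and DET1, at -2.42, read 1.79 and 1.32. Medians over the genes of chromosome VI were -0.55 and -0.38 on those slides, and over chromosome I -0.18 and -0.12. On the same slides chromosome XIII stood at -0.96 and -0.76 and chromosome VIII at 0.46 and 0.27. Neither chromosome VI nor chromosome I was thus set apart from the others there.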

How the data were processed

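Messenger RNA of BF2B and BF2 under salt was measured on 2 dye-swapped slides. Per the labels, total RNA was amplified linearly by the Eberwine method and turned into Cy5-labelled or Cy3-labelled cDNA with Klenow enzyme. Per the file headers, the authors' scanner files hold the median intensity of each of 23184 spots and of its local background at both wavelengths, with a further spot flag. The sources used here do not name the scanner or its software. The deposited value table holds log2 ratios, and it was used as an alternative. Checked against the scanner files, its columns correlated at 0.9997 or more with the log2 of a strain's signal over that of BF2 at the first of 3 spots, background-subtracted and not centred, with the sign turned in replicate 2. Between 62.7% and 69.7% of values lay within 0.001 of it. Its columns had medians of 0.20, -0.29, 0.23 and -0.79.

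Intensities were corrected by normexp with an offset of 50, which pulls ratios of dim genes towards 0, and by loess fitted to gene spots within each slide (limma 3.58.1 in R 4.3.3). The 3 spots of a probe were averaged. To count as above background, a channel needed at least 2 of 3 spots beyond the mean of their surroundings plus 2 SD. Bounds set the dim channel at the higher of its own signal and the lowest signal above background. For LEU2, saturated in BF2 on both slides, the measured fold is given as a bound. Both kinds of bound rest on the loess correction. Tables came from pandas 2.3.3 and numpy 2.4.6 under Python 3.11.15, and figures from matplotlib 3.10.9. The call rule was run on simulated data with true changes well beyond 2-fold, set in the brighter probes only. That run cannot say how the rule does for changes near 2-fold or in dim genes, and nothing here rests on it. Of 6388 probes 5849 were matched by systematic name to a RefSeq gene table of assembly R64, and the other 539 kept their systematic name, from which the chromosome was read.

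Signals are printed for the 15 highest and 15 lowest mean ratios among called genes, for the strain genes and for a few others. All other called genes are named by function, with 1 or 2 uncalled members for lists without a call. The members, the 50 gene lists and the rules were chosen with earlier results of these data known. On arrays the signal over background and the number of arrays limit precision. Alternatives changed the background correction, offset, normalization, spot summary, filters and fold threshold, and left out each slide. Promoter motifs, which were planned, were not searched because no promoter sequences were used here.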

Additional observations from a re-analysis of the deposited data

Results flagged for a closer look

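Some control spots without a gene name differed between the strains. The array repeats several unexplained controls 144 times per slide, and the files do not say what their probes bind or whether RNA for them was added. The control named Y6 had a mean log2 ratio of BF2B over BF2 of -3.8493, with median signals over its spots of 361.5 and 301.8 units in BF2B beside 6338 and 8421 units in BF2. The control named Y8 had -2.1507, with 1196.5 and 1342.5 units beside 5479 and 7427.8 units. The control named Y5 had 1.6854, with 4133 and 5247 units beside 1068 and 1859.8 units. The controls Y1 and Y2 stood at -0.78 each and Y7 at 0.53. These signals lie outside the comparison of genes, and they were above the blank spots of the same slides.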

How the results depend on the processing

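No called gene turned its direction in any of the alternatives, over 1518 called pairs of gene and setting. With a slide left out this was fixed in advance, since a call required the same sign on each slide. The other settings processed the same 2 slides again, for genes picked by large ratios. The count of calls followed the fold threshold, with 411 at 1.5-fold (194 higher, 217 lower) and 30 at 3-fold (13 and 17). With both channels required above background 94 were called, 45 higher and 49 lower. With each slide alone the counts ranged from 224 to 227 in all, 98 to 112 higher and 112 to 129 lower, since a single slide had to pass. Every other setting gave between 111 and 186 calls, the lowest with median centring and the highest with plain background subtraction or with the mean ratio alone, and 105 of the 139 calls remained under median centring. The deposited value table gave 153 calls, 62 higher and 91 lower, and held 115 of the 139. Spots with the unexplained mark -100, 54.6% of slide 1 and none of slide 2, were kept. Without them 127 genes were called, and YDL071C, YGR067C and YHB1 were among those lost. YDL071C was lost because no value of it remained on slide 1. With chromosome medians subtracted, an alternative added after the data were seen, 126 were called, 66 higher and 60 lower. The median of chromosome VI stayed between -0.9983 and -0.65 and that of chromosome I between 0.40 and 0.64. Of 750 pairs of list and setting, 196 medians moved by more than the SD between the 2 slide medians of the list. The sign changed in 4 pairs among lists with medians over 0.1 in size. The pyrimidine median of 0.16 became -0.01 with both channels required and -0.02 without replicate 1. The alpha-cell median of 0.11 became -0.01 with both channels required and -0.02 without the marked spots. The cause of these moves was not tested. No paired analysis was possible because both slides of a comparison hold 1 RNA pair, so replicate numbers name dye orientations of the same extracts. What limits these results is 1 culture pair, with signal near background for dim genes.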
